A study of Mus musculus with 8 samples.

Results

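The transcripts described here are those of 10 genes that set the mitochondrial content and fuel use of heart muscle: the coactivators *Ppargc1a* and *Ppargc1b*, the peroxisome proliferator-activated receptors *Ppara*, *Ppard* and *Pparg*, the estrogen-related receptors *Esrra*, *Esrrb* and *Esrrg*, the mitochondrial transcription factor *Tfam* and the nuclear respiratory factor *Nrf1*. They were taken by gene name from a table of 46040 genes, and all 10 passed the filter on low counts that left 13542 genes. The libraries came from the left ventricles (LVs) of male C57BL/6 mice aged 5 to 7 months. Every mouse had been infused with angiotensin II (angII) at 0.1 mg/kg/h for 14 days from an osmotic minipump, a treatment that raises blood pressure and causes left ventricular hypertrophy, and only mice alive at the end were sampled. No untreated heart is part of the comparison. The genotypes are VEGFR-1 TK-/-, in which the receptor encoded by *Flt1* lacks its intracellular tyrosine kinase domain in every cell of the body, and the littermate controls.

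The labels contradict each other. In every sample, the tag for genotype and the name of the library point to one genotype while the title points to the opposite one. The 4 libraries with a wild type tag and library name are called control-tagged here, the other 4 VEGFR-1 TK-/--tagged, and every difference below changes sign if the titles are right. *Flt1* ran from 56.9 to 84.3 normalized CPM (counts scaled to a common library total) in the control-tagged group and from 143.5 to 169.6 in the other, but counts of a whole gene do not separate transcripts with the kinase domain from transcripts without it, and so do not check the labels. *Flt1* was also the 1 gene of 13542 that the main test called. Labels and methods also disagree on the library preparation (removal of ribosomal RNA or poly-A selection), and the names of the libraries hold an abbreviation of cardiomyocyte although LV tissue is given as the source. Total counts ran from 11449137 to 16239670 per library. All 10 cardiomyocyte markers were abundant, with *Myh6* at 22320 to 37070 normalized CPM, while of the 4 atrial markers *Sln* and *Bmp10* stayed under 0.3, *Myl7* reached at most 1.23 and *Myl4* ran from 2.90 to 4.86, and 7 of 10 adipocyte markers stayed under 1.

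PGC-1α and PGC-1β, the proteins of *Ppargc1a* and *Ppargc1b*, do not bind DNA themselves. They dock on nuclear receptors and other transcription factors and recruit the machinery that opens chromatin and starts transcription. In the heart, PPARs paired with the retinoid X receptor switch on genes of fatty acid uptake and oxidation, ERRs switch on genes of the citric acid cycle and of oxidative phosphorylation, and NRF1 together with GABP (also called NRF2) switches on respiratory chain subunits and the factors, TFAM among them, that copy and transcribe mitochondrial DNA.

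Per unit of length, *Esrra* was the most abundant of the 10 transcripts. Its level was a median of 40.3 RPKM (normalized CPM divided by the kilobases of the gene's joined exons) over the 8 libraries, higher than 92.2% of the genes tested. *Ppargc1a* followed with a median of 17.5 RPKM, and no library had as much *Ppargc1a* as the library with the least *Esrra*, 23.7 against 32.6 RPKM. *Tfam* at 10.4, *Pparg* at 8.31, *Esrrb* at 7.15 and *Ppard* at 6.64 RPKM came next, and each of these medians overlapped its neighbour in the order when single libraries were compared, *Ppargc1a* and *Tfam* included. *Esrrg* at 5.14 RPKM lay below every library of *Ppard*. The lowest levels were those of *Ppargc1b* at 2.75, *Nrf1* at 1.95 and *Ppara* at 1.90 RPKM, which overlapped among themselves and lay below every library of *Esrrg*. In all, 3 of the 9 neighbours in this order did not overlap.

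**Figure D1:**
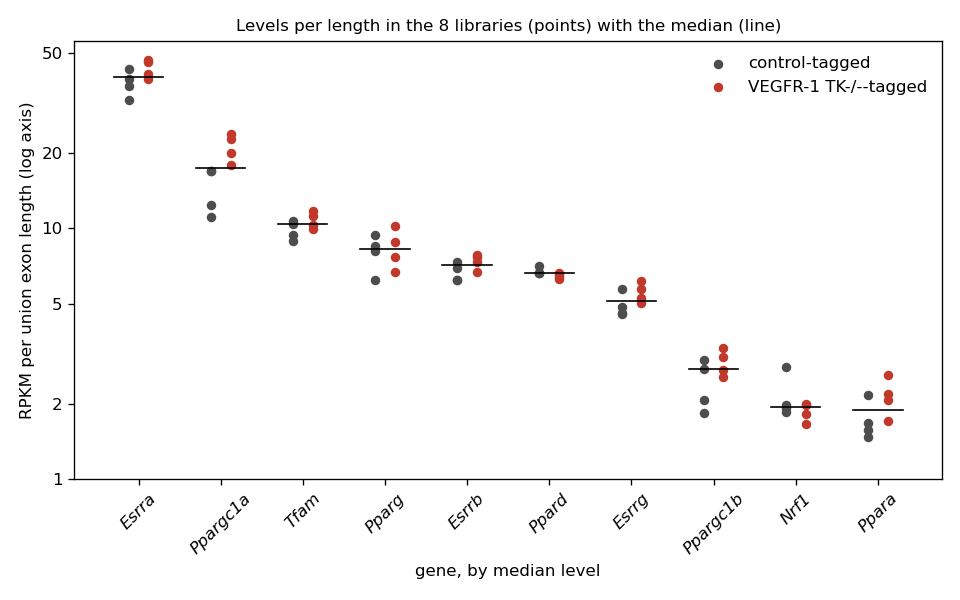
Level of each gene in RPKM (log axis) in the 8 libraries, ordered by the median over libraries (line); grey points are control-tagged and red points VEGFR-1 TK-/--tagged. *Esrra* stands alone at the top with a median of 40.3 RPKM, and *Ppargc1b*, *Nrf1* and *Ppara* form the lowest 3 with medians of 2.75, 1.95 and 1.90 RPKM.

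Within each family 1 or 2 members made up most of the RPKM. *Ppargc1a* was a median of 87.0% of the summed RPKM of the pair of coactivators, with a range of 80.5% to 89.1% over libraries. Among the PPARs, *Pparg*, the receptor known best from adipocytes, took a median of 49.3%, *Ppard*, which is expressed in most tissues, 39.9%, and *Ppara*, the receptor known for fatty acid oxidation in heart and liver, 10.9%. The adipocyte genes *Plin1*, *Lep* and *Retn* had 0 counts in every library, and *Adipoq* reached at most 0.145 normalized CPM. Of the same list, *Adig* ran from 0.325 to 1.80 normalized CPM, and *Cfd* reached 1.345 in control-tagged replicate 3. *Cidea* was the 1 abundant gene of that list, at 36.7 to 54.7 normalized CPM. Among the ERRs, *Esrra* took a median of 77.2%, *Esrrb* 13.0% and *Esrrg* 9.80%. These levels and shares depend on the length given to each gene. With the length of the longest transcript in place of all exons, *Esrra* moved from 40.3 to 71.1 RPKM and stayed at rank 1, *Ppard* moved from 6.64 to 13.4 RPKM and to rank 3, above *Pparg* at 11.5 RPKM, and *Nrf1* moved from 1.95 to 4.95 RPKM and to rank 8. *Esrra* shares 73 bases of exon with *Trmt112* on the opposite strand and 91 bases with *Mir6990* on its own strand, and whether the counting used strand is not given in the sources used here.

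*Ppargc1a* showed the largest difference of the 10 genes. Its control-tagged libraries had 112.1, 73.1, 81.8 and 111.6 normalized CPM, and its VEGFR-1 TK-/--tagged libraries had 131.1, 118.0, 150.4 and 156.2. All 4 VEGFR-1 TK-/--tagged libraries lay above all 4 control-tagged libraries, with a gap between 112.1 and 118.0. The means were 94.7 ± 20.2 and 138.9 ± 17.6 normalized CPM (SD, n = 4 each), a log2 fold change of 0.55 (SE 0.15, 95% interval 0.23 to 0.88) or 46.9% more. The quasi-likelihood test of edgeR gave an unadjusted p of 0.0033 and a false discovery rate (FDR, adjusted by Benjamini-Hochberg for the 13542 genes) of 0.442, so the difference did not pass the threshold of 0.1. By p, *Ppargc1a* was number 96 of the 13542 genes. The exact 2-sided permutation test gave p = 0.0286, which is the smallest that 4 against 4 libraries can give. The likelihood ratio test put its FDR at 0.109 and DESeq2 at 0.120, both also above the threshold. These were the lowest FDRs among the alternatives tried. With scaling by total counts only, the FDR in edgeR was 0.651. When any 1 library was dropped, the log2 fold change stayed between 0.45 and 0.64, but the FDR varied between 0.27 and 0.94.

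*Ppargc1b*, the closely related coactivator, had 11, 7.33, 11.97 and 8.24 normalized CPM in the control-tagged libraries and 10.2, 10.9, 13.3 and 12.3 in the other group. Control-tagged replicates 2 and 4 were the lowest of the 8 and the groups overlapped. The difference was 0.28 on the log2 scale (SE 0.17, 95% interval -0.097 to 0.65) with an FDR of 0.660 in the quasi-likelihood fit of edgeR. With single libraries left out it ran from 0.16, without control-tagged replicate 2, to 0.40, without control-tagged replicate 3. *Ppargc1b* had 101 to 178 reads per library, against 1007 to 1960 for *Ppargc1a*.

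The 3 PPARs differed in their patterns. *Ppara* had 6.44, 5.66, 6.05 and 8.32 normalized CPM in the control-tagged libraries and 8.37, 6.57, 9.96 and 7.97 in the VEGFR-1 TK-/--tagged ones. Control-tagged replicates 1 to 3 were the lowest 3 of the 8, and replicate 4 of that group lay within the range of the other. *Ppara* had the second largest log2 fold change of the 10 genes, 0.32 (SE 0.17, 95% interval -0.061 to 0.70, FDR 0.616 in edgeR), from only 74 to 126 reads per library.

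*Ppard* was the steadiest of the 10 genes, with 49.9, 53.3, 50.04 and 49.9 normalized CPM in the control-tagged libraries and 48.2, 49.2, 47.3 and 49.9 in the other group. The coefficient of variation over the 8 libraries was 3.50%. Control-tagged replicate 2 stood above the rest, and the groups overlapped. Its log2 fold change was -0.062 (SE 0.077, 95% interval -0.23 to 0.11), and the whole interval lay inside the fold threshold of the study, 0.585 on the log2 scale in either direction.

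*Pparg* had 24.0, 27.7, 18.4 and 25.1 normalized CPM in the control-tagged libraries and 26.0, 22.8, 19.8 and 30.3 in the others. High and low libraries occurred in both groups. Its log2 fold change of 0.057 (SE 0.15, 95% interval -0.28 to 0.39) turned negative when either of a pair of libraries was left out, -0.052 for control-tagged replicate 3 and -0.056 for VEGFR-1 TK-/--tagged replicate 4, so no direction can be given for it.

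The 3 ERRs were each a little higher in the VEGFR-1 TK-/--tagged group, by less than the spread allows to call. *Esrra*, a main partner of PGC-1α on genes of oxidative phosphorylation, had 189.0, 142.8, 172.6 and 162.5 normalized CPM in the control-tagged and 180.5, 205.9, 202.7 and 173.4 in the VEGFR-1 TK-/--tagged ones. Control-tagged replicate 1 lay above 2 libraries of the other group. The difference was 0.19 on the log2 scale (SE 0.11, 95% interval -0.043 to 0.43).

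*Esrrb*, known best from embryonic stem cells, had 44.4, 37.8, 42.2 and 37.5 normalized CPM against 40.7, 47.6, 46.5 and 44.2, again with overlap. *Esrrg*, the ERR of oxidative muscle and heart, had 35.6, 28.7, 28.2 and 30.2 normalized CPM against 31.2, 35.5, 32.6 and 38.4. In *Esrrg* as in *Esrra*, the overlap came from control-tagged replicate 1. Their log2 fold changes were 0.15 (SE 0.094, 95% interval -0.060 to 0.35) and 0.17 (SE 0.11, 95% interval -0.066 to 0.40), with FDRs of 0.676 and 0.670 in edgeR, and that of *Esrra* was 0.622. Without control-tagged replicate 1, the number of the 10 genes whose groups did not overlap, in either direction, went from 1 to 4. *Esrra* and *Esrrg* were among them. For *Esrra*, the highest remaining control-tagged level in the main normalization was 172.6 normalized CPM, against a lowest of 173.4 in the other group. Groups with a library fewer separate more readily, and the share over all genes in that setting is not given here.

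*Tfam*, which packages mitochondrial DNA and starts its transcription, had 47.5, 42.0, 46.2 and 39.7 normalized CPM in the control-tagged and 44.0, 52.3, 45.8 and 49.8 in the VEGFR-1 TK-/--tagged ones. Groups overlapped here too, at a log2 fold change of 0.13 (SE 0.095, 95% interval -0.079 to 0.34). *Nrf1* had 19.0, 19.8, 28.9 and 20.2 normalized CPM in the control-tagged and 18.8, 17.1, 20.4 and 20.6 in the VEGFR-1 TK-/--tagged ones. Control-tagged replicate 3 alone stood out from the other 7, which lay between 17.1 and 20.6. The log2 fold change of -0.20 (SE 0.14, 95% interval -0.51 to 0.12) moved to -0.037 without that library. The 95% intervals of *Ppard*, *Pparg*, *Esrra*, *Esrrb*, *Esrrg*, *Tfam* and *Nrf1* all lay within the fold threshold, whereas those of *Ppargc1a*, *Ppargc1b* and *Ppara* reached beyond it on the upper side.

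**Figure D2:**
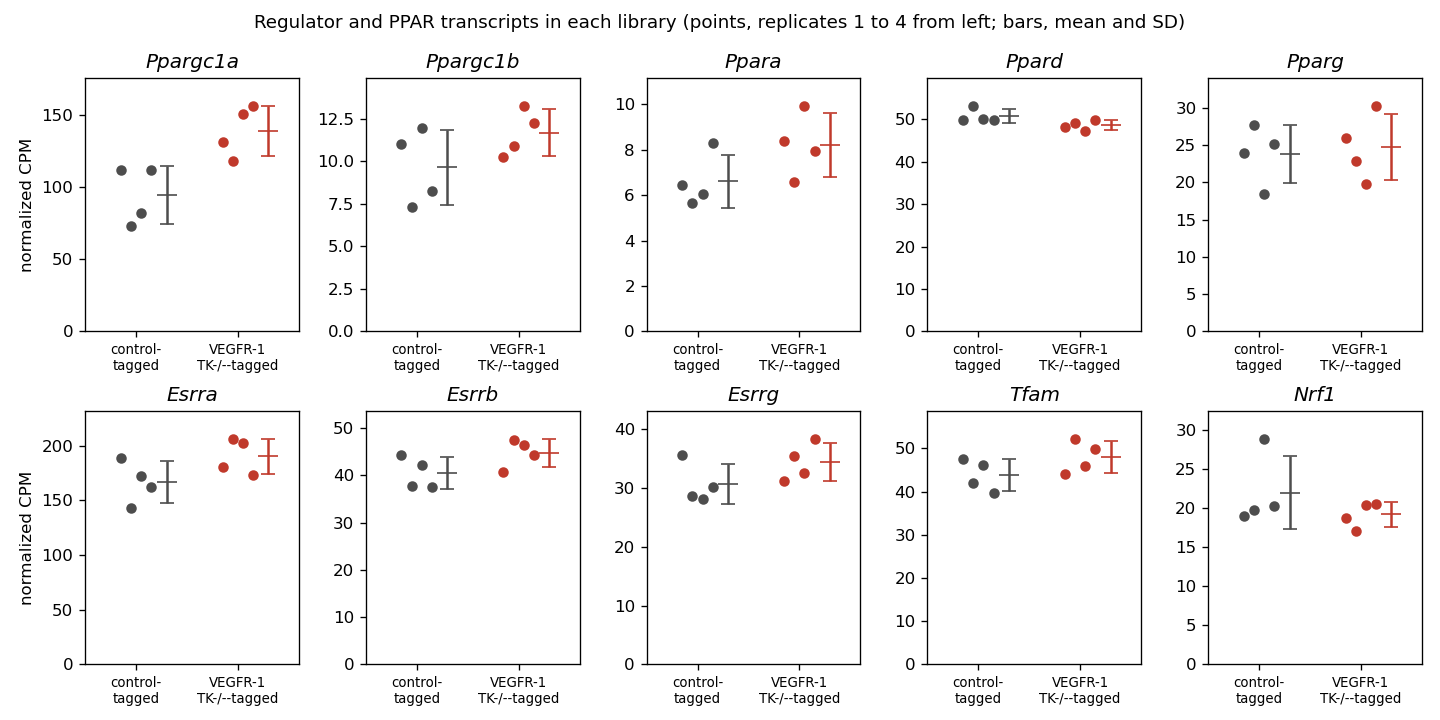
Normalized CPM of each gene in the 4 control-tagged (grey) and 4 VEGFR-1 TK-/--tagged libraries (red), replicates 1 to 4 from left to right, with the group mean and SD beside them; each axis starts at 0. Only for *Ppargc1a* do the groups not overlap (at most 112.1 against at least 118.0), and the *Nrf1* level of control-tagged replicate 3, 28.9, stands apart.

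Counted over the 10 genes, 0 passed both the FDR threshold of 0.1 and a fold of at least 1.5, where 0.00738% of all genes tested were called, and the likelihood ratio test and DESeq2 also called 0 of the 10. An unadjusted p under 0.05 was reached by 1 of the 10, *Ppargc1a*, against 8.96% of all genes (3.32% higher and 5.64% lower). This count was 3 without control-tagged replicate 1 and 2 when either of control-tagged replicates 3 and 4 was left out, and likewise for VEGFR-1 TK-/--tagged replicate 2. For all genes, the share in those settings is not given here. The groups did not overlap for 1 of the 10, the same gene, against 4.98% of all genes, 2.46% with the VEGFR-1 TK-/--tagged group on top. The VEGFR-1 TK-/--tagged group was higher for 8 of the 10, against 49.7% of all genes, and lower for *Ppard* and *Nrf1*. The median log2 fold change of the 10 was 0.16 and that of all genes was -0.0012.

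**Figure D3:**
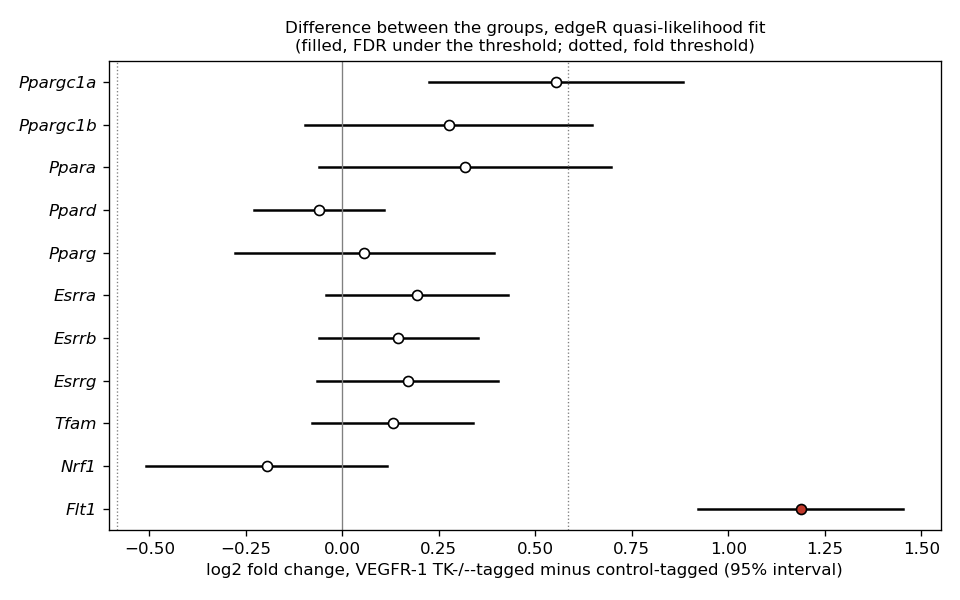
Log2 fold change of each gene (VEGFR-1 TK-/--tagged minus control-tagged, edgeR quasi-likelihood fit) with its 95% interval; the dotted lines mark a fold of 1.5 in either direction and the filled point an FDR under 0.1. The interval of *Ppargc1a*, 0.23 to 0.88, is the only one of the 10 that does not contain 0; *Flt1*, the gene of VEGFR-1, is shown for scale at 1.19.

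Markers of other cells also had fitted differences between the groups, and none of them passed an FDR of 0.1 in edgeR. The VEGFR-1 TK-/--tagged group was lower for 7 of 8 endothelial markers (median log2 fold change -0.26), all 8 fibroblast markers (-0.30), all 9 macrophage and leukocyte markers (-0.31) and 4 of 5 markers of smooth muscle and pericytes (-0.43), and higher for 8 of 10 cardiomyocyte markers (0.18). An unadjusted p under 0.05 was reached by 4 endothelial markers, 2 of smooth muscle and pericytes and 1 of macrophages and leukocytes, all lower. It was also reached by 2 cardiomyocyte markers, both higher, and by 0 fibroblast markers. Of all genes tested, 5.64% were lower with such a p and 3.32% higher. Summed levels overlapped for each of these lists, with endothelial sums of 1488 to 1841 normalized CPM in the control-tagged and 1343 to 1493 in the VEGFR-1 TK-/--tagged libraries, fibroblast sums of 1670 to 2758 and 794 to 2208, and cardiomyocyte sums of 80850 to 118500 and 102300 to 125400. Control-tagged replicate 2, which had the least *Ppargc1a*, *Ppargc1b*, *Ppara* and *Esrra*, also had the lowest cardiomyocyte sum and the highest fibroblast sum. In such bulk samples, fewer cells of a type and less RNA per cell cannot be told apart, and the part of cell composition in the differences of the 10 genes was not tested.

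The promoters are shown for *Ppargc1a* and *Ppara*, and for *Tfam* and *Esrrb*, because each of these pairs varied together between libraries, as described below. Each is the window from 250 bases before to 50 bases after a transcription start in RefSeq (GRCm38.p6), written 5′ to 3′ on the strand of the gene, with matches to the motifs named below in capitals.
*Ppargc1a*, chr5:51567676-51567975, minus strand: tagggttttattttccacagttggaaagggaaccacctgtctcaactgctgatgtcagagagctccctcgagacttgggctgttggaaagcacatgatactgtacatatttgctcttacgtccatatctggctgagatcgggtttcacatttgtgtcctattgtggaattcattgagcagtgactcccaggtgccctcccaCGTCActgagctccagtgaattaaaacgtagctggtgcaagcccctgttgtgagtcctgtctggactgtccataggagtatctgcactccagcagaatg
*Ppara*, chr15:85735526-85735825, plus strand: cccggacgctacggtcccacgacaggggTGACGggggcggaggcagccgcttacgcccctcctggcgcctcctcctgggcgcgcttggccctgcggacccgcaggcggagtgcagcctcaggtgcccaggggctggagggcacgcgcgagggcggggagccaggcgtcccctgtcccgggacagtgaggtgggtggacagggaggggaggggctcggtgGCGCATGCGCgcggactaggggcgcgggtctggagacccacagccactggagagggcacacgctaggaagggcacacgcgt
*Tfam*, chr10:71237995-71238294, minus strand: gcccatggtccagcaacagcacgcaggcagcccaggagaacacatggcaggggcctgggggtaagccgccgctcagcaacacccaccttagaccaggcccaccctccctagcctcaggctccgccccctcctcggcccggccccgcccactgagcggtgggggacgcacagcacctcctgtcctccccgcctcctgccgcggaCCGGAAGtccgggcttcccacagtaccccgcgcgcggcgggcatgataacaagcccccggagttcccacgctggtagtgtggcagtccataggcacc
*Esrrb*, chr12:86360867-86361166, plus strand, the first of 2 windows: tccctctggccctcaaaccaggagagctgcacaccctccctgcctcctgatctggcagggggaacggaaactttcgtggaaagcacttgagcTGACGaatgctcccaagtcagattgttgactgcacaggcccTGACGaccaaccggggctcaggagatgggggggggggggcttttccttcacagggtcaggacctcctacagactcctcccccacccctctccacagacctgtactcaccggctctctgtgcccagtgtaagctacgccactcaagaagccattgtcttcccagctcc

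Of the 10 genes, 9 had at least 1 such window, 16 windows in all. Both strands were searched for 6 motifs, and no match in these 16 windows overlapped one of another motif. TGACG, a half-site of the cAMP response element through which CREB acts, stood in 4 of the 16 windows, against 20.8% of all 32851 windows. It begins at -49 from the start of *Ppargc1a*, as CGTCA on the opposite strand, at -222 in *Ppara*, at -4 in *Ppard*, and at -158 and -117 in *Esrrb*. The site of NRF1 (GCGCA and GCGC with 1 base between) stood in the *Ppara* window at -31 as GCGCATGCGC, against 4.6% of all windows, and that of GABP, CCGGAAG, in the *Tfam* window at -47, against 8.86%. A site of MEF2, a muscle transcription factor family (CTA and TAG with 4 bases between), stood in 1 of the windows of *Esrrg* at -22 as CTATTTATAG, against 3.69%. The letters matched in *Ppara* read the same on the opposite strand, and those in *Esrrg* do not. Neither the extended ERR half-site, TNAAGGTCA, nor the direct repeat bound by PPAR and the retinoid X receptor (AGGNCA in 2 copies with 1 base between) occurred in any of the 16, and they occurred in 1.28% and 0.381% of all windows. In the other lists described below, CCGGAAG stood in 8 of 17 windows of genes of mitochondrial DNA transcription and replication, in 4 of 26 windows of ERR and NRF1 targets, in 4 of 30 windows of PPAR targets and in 4 of 28 windows of co-regulators and partners of PGC-1. TGACG stood in 8 of 17, 15 of 26, 6 of 30 and 6 of 28 windows of the same lists, and several of these windows belong to the same gene and overlap. The direct repeat bound by PPAR and the retinoid X receptor stood in 0 of 30 windows of PPAR targets. In the windows of ERR and NRF1 targets, the extended ERR half-site stood in 0 of 26 and the NRF1 site in 2 of 26. These matches describe letters in short windows and not bound sites.

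Known targets of the PPARs mostly had fitted fold changes above 0, although the groups overlapped for all but 1 of them. Of 32 such genes, all tested, 31 were higher and 1, *Ucp2*, was lower (log2 fold change -0.19), where 49.7% of all genes tested were higher. The median log2 fold change was 0.27. No gene of the list passed an FDR of 0.1 in the quasi-likelihood test, while 1 did in the likelihood ratio test and 0 did in DESeq2. An unadjusted p under 0.05 was reached by 13 of the 32, all higher, against 3.32% of all genes in that direction.

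*Acot2* and *Ucp3* were among the 3 genes of the list with the lowest p. *Acot2*, a mitochondrial thioesterase that cuts long acyl-CoA, had 71.7, 42.4, 46.5 and 58.7 normalized CPM in the control-tagged and 68.1, 108.3, 91.1 and 73.3 in the VEGFR-1 TK-/--tagged ones. Its groups overlapped through control-tagged replicate 1, and its log2 fold change was 0.64 (SE 0.18, FDR 0.449 in edgeR).

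*Ucp3*, a mitochondrial carrier protein that fatty acids induce in muscle, had 40.7, 41.1, 46.5 and 25.4 normalized CPM against 59.1, 135.0, 64.8 and 44.6. VEGFR-1 TK-/--tagged replicate 2 was the highest, as for *Acot2*, and replicate 4 of that group lay below control-tagged replicate 3. Its difference was 0.98 on the log2 scale (SE 0.30, FDR 0.453 in edgeR).

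Further genes were picked for mention after their values had been seen. The inhibitor of pyruvate oxidation *Pdk4* had a log2 fold change of 0.61 (FDR 0.553 in edgeR), from 444 to 694 normalized CPM in the control-tagged libraries to 607, 1579, 691 and 700 in the others, so that replicate 2 stood far above the other 7 libraries. The peroxisomal enzyme *Ehhadh* was at 0.67, the fatty acid transporter *Slc27a1* at 0.55, malonyl-CoA decarboxylase *Mlycd* at 0.40, the medium-chain dehydrogenase *Acadm* at 0.37 and the lipid droplet protein *Plin5* at 0.34 on the log2 scale. *Acot1*, at 1.25, is nearly identical in sequence to *Acot2*, and reads may have been split between them. The entry gates of fatty acids into mitochondria had smaller differences, with log2 fold changes of 0.098 for *Cpt1a*, 0.16 for *Cpt1b* and 0.21 for *Cpt2*. Their FDRs were 0.827, 0.855 and 0.725 in edgeR. *Cpt1b* had only 69 to 118 reads per library, against 555 to 883 for *Cpt1a* and 2679 to 4310 for *Cpt2*. Whether reads of *Cpt1b* were lost in the counting was not tested, so its fold change is uncertain.

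The count of 13 PPAR targets depended on single libraries. It fell to 5 when VEGFR-1 TK-/--tagged replicate 2 was left out, to 7 for VEGFR-1 TK-/--tagged replicate 3 and to 7 for control-tagged replicate 2, while between 27 and 31 of the 32 were higher with any 1 library left out. Shares over all genes in those settings are not given here, so the fall was not set against that of all genes. VEGFR-1 TK-/--tagged replicates 2 and 3 had summed levels of the list of 29750 and 28880 normalized CPM, where the other 6 libraries lay between 17910 and 24480. Control-tagged replicate 2 was the lowest of all 8, as it was for the cardiomyocyte markers. The part of cell composition in this result was not tested.

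**Figure D4:**
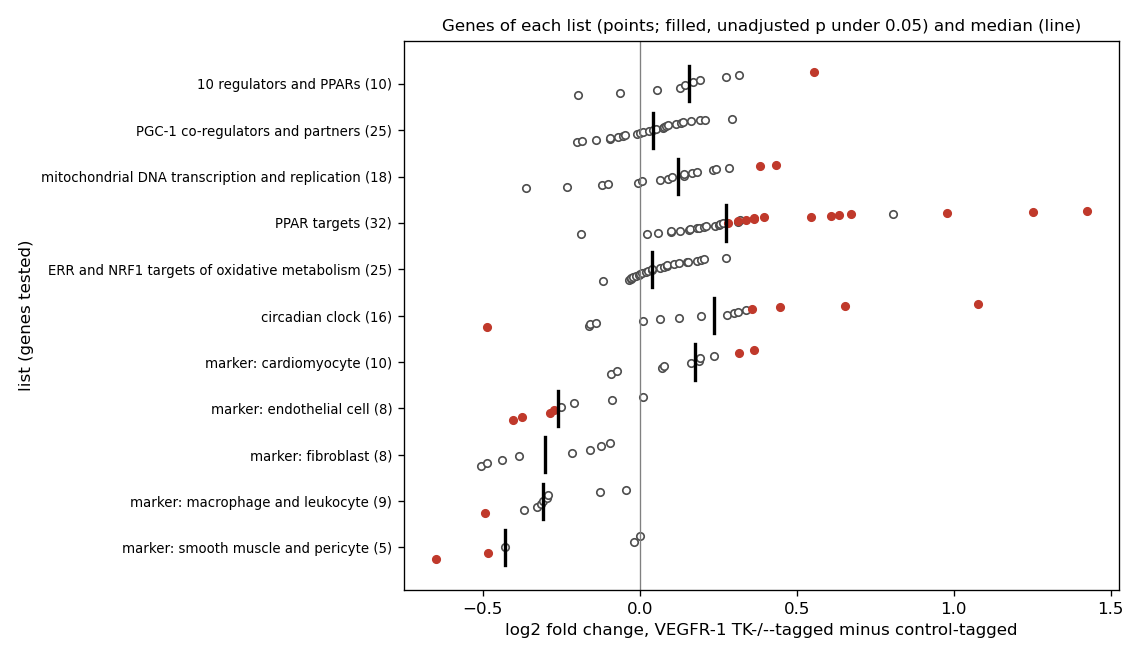
Log2 fold change (VEGFR-1 TK-/--tagged minus control-tagged) of every tested gene of each list, 1 point per gene, with the median as a line; filled points have an unadjusted p under 0.05. Of the 32 PPAR targets 31 lie above 0, with a median of 0.27, while the 25 ERR and NRF1 targets centre on 0.038 and the endothelial, fibroblast, leukocyte and mural markers lie mostly below 0.

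Targets of ERR and NRF1 in oxidative metabolism, among them enzymes of the citric acid cycle and subunits of the respiratory chain, had smaller fitted differences. Of 25 genes, 18 were higher and 7 lower, with a median log2 fold change of 0.038, and 0 had an unadjusted p under 0.05, against 8.96% of all genes. The range ran from -0.12 to 0.28. The count of higher genes ran from 9 to 25 with single libraries left out, 9 without control-tagged replicate 2, 11 without VEGFR-1 TK-/--tagged replicate 3 and 25 without control-tagged replicate 3, so the direction of the list rests on single libraries. Shares of higher genes over all genes in those settings are not given here. The log2 fold changes of the PPAR targets and of this list were not compared by a test.

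Co-regulators and partners of PGC-1, among them the retinoid X receptors, the deacetylases *Sirt1* and *Sirt3*, the corepressor *Ncor1* and the subunits of GABP, were 16 higher and 9 lower of 25, with a median log2 fold change of 0.043 and 0 with an unadjusted p under 0.05 in edgeR. Genes that transcribe or copy mitochondrial DNA were 13 higher and 5 lower of 18, with a median of 0.12, and 2 (11.1%) had an unadjusted p under 0.05, against 8.96% of all genes. That count was 3 without control-tagged replicate 4 and 1 without control-tagged replicate 3, and also 1 when VEGFR-1 TK-/--tagged replicate 2 was left out. For all genes, the share in those settings is not given here. *Mgme1*, an exonuclease needed for replication of mitochondrial DNA, had 18.1, 15.2, 14.9 and 15.6 normalized CPM in the control-tagged and 19.7, 21.8, 21.9 and 19.9 in the VEGFR-1 TK-/--tagged ones. Its groups did not overlap, which held for 1 of the 18 genes of this list and for 4.98% of all genes tested. The log2 fold change was 0.38 (SE 0.10, FDR 0.442 in edgeR). *Mterf2*, of the mitochondrial termination factor family, had a log2 fold change of 0.43 (SE 0.17, FDR 0.506 in edgeR), with 12.4 to 18.4 against 16.7 to 27.2 normalized CPM, and its groups overlapped. The mitochondrial RNA polymerase *Polrmt* was at -0.0055 and the replicative polymerase *Polg* at 0.0078 on the log2 scale, both mentioned after their values had been seen.

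*Ppargc1a* and *Ppara* follow the time of day in many tissues, and the hour at which each heart was taken is not given in the sources used here. Of 16 genes of the circadian clock, 12 were higher and 4 lower, with a median log2 fold change of 0.24, and 5 had an unadjusted p under 0.05, where 49.7% of all genes were higher and 8.96% had such a p. *Dbp*, an output gene of the clock, had 21.2, 12.3, 15.1 and 17.7 normalized CPM in the control-tagged and 64.8, 28.2, 33.3 and 13.4 in the VEGFR-1 TK-/--tagged ones. The difference was 1.08 on the log2 scale (SE 0.36, FDR 0.468 in edgeR). For *Dbp*, VEGFR-1 TK-/--tagged replicate 4 lay within the range of the control-tagged libraries, so the groups overlapped. *Tef*, a relative of *Dbp*, was at 0.36 on the log2 scale (SE 0.15) and *Npas2*, a partner of the clock's activator, at -0.49 (SE 0.19), with FDRs of 0.521 and 0.506 in edgeR. The other 2, *Nr1d2* at 0.45 and *Per3* at 0.65, encode repressors of the clock. The count of 5 ran from 1 to 9 with single libraries left out, 1 without control-tagged replicate 2 and 9 without VEGFR-1 TK-/--tagged replicate 4. Shares over all genes in those settings are not given here. The part of the time of day in the differences of the 10 genes was not tested.

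The 10 genes were also compared by how they varied from library to library, as the Pearson r of log2 CPM over the 8 libraries, which share the normalization and hold both groups. Of the 45 pairs, 25 had an r above 0 and the median was 0.19, where a gene of the 10 and any other gene tested had a median r of -0.0023. An r of at least 0.7 was found for 7 of the 45 pairs, and for 5.91% of all pairs of 1 of the 10 with another gene.

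The most alike were *Esrrb* and *Tfam*, with r = 0.89 (rho = 0.83) and 0.84 for the deviations from the group means. Without the 2 libraries farthest from the median of *Esrrb*, r was 0.71. In every pair such libraries were chosen by the gene that comes first in the opening list, and they can differ between pairs. *Esrra* and *Esrrb* had r = 0.89, 0.83 within groups and 0.82 without the farthest 2. *Ppargc1a* was most like *Ppara*, with r = 0.83 (rho = 0.74), 0.73 within groups and 0.62 without the farthest 2, although 102 genes of the 13541 others were at least as alike to *Ppargc1a*. Its next in likeness among the 10 was *Esrrg*, with r = 0.73, which dropped to 0.34 without the farthest 2. The r of *Ppargc1b* with *Esrrb* was 0.84 and with *Esrra* 0.77, and these dropped to 0.40 and 0.06 without the farthest 2. *Tfam*, the textbook target of NRF1, had an r of -0.16 with *Nrf1*.

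*Ppard* ran against most of the others. Its r was -0.83 with *Esrra*, -0.78 with *Ppara*, -0.77 with *Ppargc1a* and -0.72 with *Ppargc1b*. Without the 2 farthest libraries these came to -0.36, -0.40, -0.46 and -0.19. The libraries left out were chosen by *Ppard* for the pair with *Esrra* and by the other gene for the rest. Over all libraries, the *Ppard* values span only 47.3 to 53.3 normalized CPM.

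**Figure D5:**
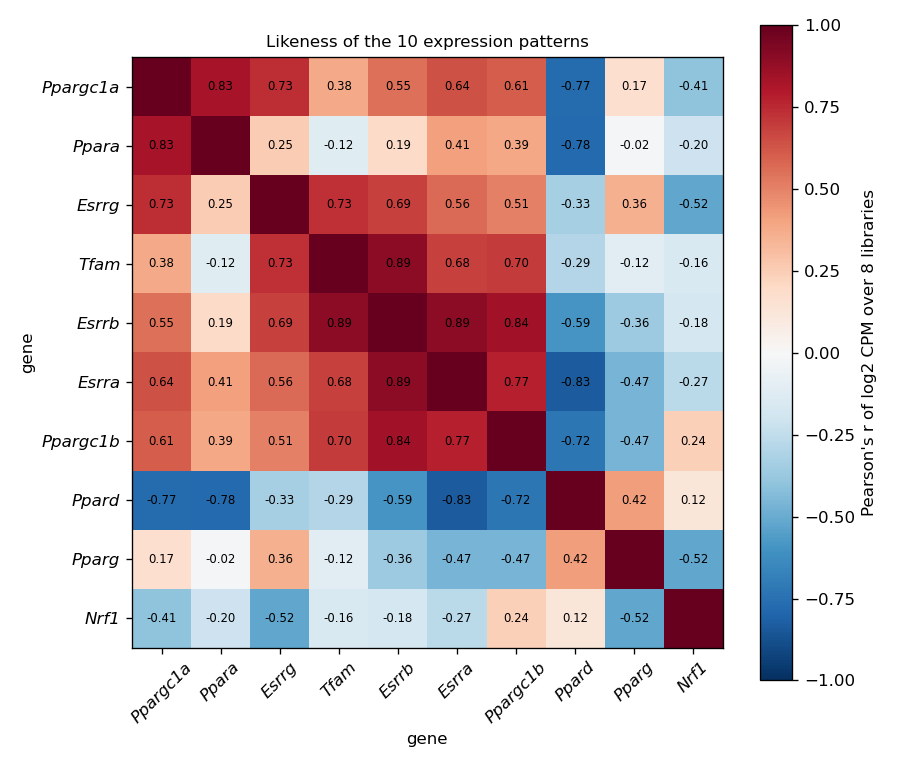
Pearson r of log2 CPM over the 8 libraries for each pair of the 10 genes (red, positive; blue, negative). All pairs among *Ppargc1a*, *Esrrg*, *Tfam*, *Esrrb*, *Esrra* and *Ppargc1b* have positive values. Some of these rest on few libraries. The r of *Ppargc1b* with *Tfam* drops from 0.70 to 0.02 without the 2 libraries farthest from the median of *Ppargc1b*. *Ppargc1a* is most like *Ppara* (0.83), and *Ppard* is negative with 7 of the 9 others.

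Over all genes tested, the most alike to *Ppargc1a* were *Ift52* (r = 0.97) and *Btf3l4* (0.96), to *Ppargc1b* *Tango6* (0.97) and *Gm11899* (0.96), and to *Ppara* *Rbm20* (0.97) and *Vezt* (0.96). *Ppard* was most like *Sod3* (0.97) and *Tbx15* (0.97), and *Pparg* most like *Mageh1* (0.98) and *Brip1os* (0.98). For *Esrra* these were *Sh2b1* (0.99) and *Fam195a* (0.98), for *Esrrb* the PPAR target *Plin5* (0.98) and *Higd1a* (0.97), and for *Esrrg* *Hspa4* (0.95) and *Mppe1* (0.95). *Tfam* was most like *Mapre3* (0.97) and *4631405J19Rik* (0.96), and *Nrf1* most like *Gm28875* (0.98) and *Smco4* (0.98). With 8 libraries and 13541 candidates, values of this size are reached for every one of the 10 genes.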

How the data were processed

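RNA of 8 LVs was sequenced, with 4 libraries in each group. The authors used Trim Galore 0.4.4 for trimming, STAR 2.5.4b for alignment to GRCm38 and featureCounts for counting on GENCODE genes, and deposited raw counts per gene. Strand and multimapping settings of the counting are not given in the sources used here. All 8 columns were used, grouped by genotype tag and library name. Animals are not named in the labels, so p-values measure the spread between these libraries.

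The filter kept genes that reached a CPM of 1 in 2 or more libraries, and these were scaled with TMM and tested with the quasi-likelihood test of edgeR 4.0.16 in R 4.3.3, with no covariates. A call needed an FDR below 0.1 and a log2 fold change of 0.585 or more in either direction. Normalized CPM uses the TMM-scaled totals. RPKM divides it by the union of exons in GENCODE M21, and log2 CPM has a prior count of 2. Alternatives tried were DESeq2 1.42.0, the likelihood ratio test, robust dispersion, RLE, total counts, other filters and thresholds, each library left out, a replicate block and grouping by titles. The tests were tested on simulated data. TMM factors ran from 0.917 to 1.12.

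The 10 genes and the lists were chosen with earlier results of these data known. Genes named by rule are all 10, *Flt1* and the 2 genes most alike to each of the 10. Per list, they are also those with an FDR under 0.1 and the 3 lowest p under 0.05. Other genes, among them *Nr1d2*, *Per3* and single cell type markers, fall outside this rule. Only some of them are marked as chosen after their values were seen. Some single genes that this rule covers are left out of the text.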

Additional observations from a re-analysis of the deposited data

Results flagged for a closer look

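In 2 of 36 groups of 4 libraries, 1 library was far from the other 3 by Dixon's test at the 95% level, and chance gives about 1 in 20. *Ppard* was at 53.28 normalized CPM in control-tagged replicate 2, where the other 3 of the group lay between 49.85 and 50.04. *Nrf1* was at 28.92 normalized CPM in control-tagged replicate 3, above 19.0 to 20.2 in the rest of its group.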

How the results depend on the processing

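None of the 10 genes was called in any of the 16 alternatives run with these groups. Over all genes, 1 was called in the main fit, 53 by the likelihood ratio test, 32 by DESeq2, 23 with no filter on low counts, and 1 to 3 with single libraries left out (3 without control-tagged replicate 2 or 4, 2 without control-tagged replicate 1), with the cause not tested. The likelihood ratio test put 1 PPAR target under an FDR of 0.1. Of the 10 genes, 1 to 4 had groups that did not overlap with single libraries left out (4 without control-tagged replicate 1, and 2 when replicate 4 of either group was left out). These counts hold either direction, and the share over all genes in the same settings is not given here. Grouping by titles turned every sign: -0.55 for *Ppargc1a*, -0.28 for *Ppargc1b*, -0.32 for *Ppara*, 0.062 for *Ppard*, -0.057 for *Pparg*, -0.19 for *Esrra*, -0.15 for *Esrrb*, -0.17 for *Esrrg*, -0.13 for *Tfam* and 0.20 for *Nrf1*. With single libraries left out, *Pparg* ran from -0.056 (VEGFR-1 TK-/--tagged replicate 4) to 0.147, and it also turned, to -0.052, without control-tagged replicate 3. Same-numbered libraries did not pair (r of their deviations -0.055 to 0.34, over 0.1 for 1 of 4 pairs), and the replicate block left 1 gene called and *Ppargc1a* at 0.57 with an FDR of 0.341 in edgeR. With single libraries left out, the others ran from 0.45 to 0.64 for *Ppargc1a*, 0.21 to 0.44 for *Ppara*, -0.074 to -0.038 for *Ppard*, 0.13 to 0.26 for *Esrra*, 0.11 to 0.19 for *Esrrb*, 0.11 to 0.25 for *Esrrg*, 0.084 to 0.17 for *Tfam* and -0.26 to -0.037 for *Nrf1*. At 74 to 178 reads per library, *Ppara* and *Ppargc1b* have the widest intervals of the 10.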
